A study of Mus musculus with 28 samples.

Results

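Cartilage of the medial tibial plateau was compared between mice whose knees had been destabilised and mice that had a sham operation, 1 week after surgery. The arrays were chosen by 2 labels, a source of cartilage and a title naming the operation and the week, which gave 6 of the 28 arrays of the series: 3 after destabilization of the medial meniscus (DMM) and 3 after sham surgery. Each array held RNA pooled from 3 mice. All mice were male, 10 to 12 weeks old at surgery, with C57BL6 as the strain label, although the description of the surgery also names Jaffa mice. In DMM, a surgical model of osteoarthritis after joint injury, the ligament that anchors the medial meniscus to the tibia was cut in both knees. In sham mice the same ligament was exposed in both knees and left intact, so both groups had an opened and flushed joint capsule, and no group without surgery was part of the comparison. The cartilage was cut from frozen, decalcified sections by laser microdissection, and 70 ng of total RNA was labelled for Agilent mouse miRNA arrays.

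MicroRNAs (miRNAs) are short RNAs that lower the output of messenger RNAs, and bases 2 to 8 of the mature strand, the seed, largely decide which messengers are bound. A hairpin precursor can give a mature miRNA from its 5p arm and another from its 3p arm, and usually one arm is kept in larger amount. In cartilage, miR-140 is the best known member, highly expressed by chondrocytes and needed for normal skeletal growth in mice. Values below are log2 signals as deposited. A miRNA is called higher or lower when limma, fitted across all 438 miRNAs with a value on all 12 cartilage arrays of the series, gave a Benjamini-Hochberg adjusted p under 0.05. Signals of different probes are not amounts of RNA, and fewer cells or less RNA per cell cannot be told apart in pooled tissue.

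In DMM cartilage 69 miRNAs were higher (15.8% of 438) and 53 were lower (12.1%). The rises were the larger changes: 15 miRNAs (3.42%) were at least 2-fold higher, with miR-6931-5p at 6.03-fold, and 0 were at least 2-fold lower (0.0%). The largest fall among called miRNAs, of miR-6954-5p, left 65.5% of the sham level. Mature miRNAs with a run of alternating U and G made up much of the top of the rises, and the falls held let-7 members, Hox-cluster miR-196 and 14 miRNAs of the imprinted Dlk1-Dio3 cluster. In 109 of the 438 miRNAs (24.9%) all 3 DMM pools were above all 3 sham pools, and in 102 (23.3%) they were below, and each of the 122 called miRNAs was among these. The median change over all 438 miRNAs was -0.02, over the 69 higher miRNAs 0.66 and over the 53 lower miRNAs -0.46. The count rested in part on single pools: 42 miRNAs were called without DMM replicate 3 and 56 without sham replicate 3, against 122 with all arrays. The balance of directions turned with the scaling: quantile normalization called 60 miRNAs higher and 75 lower, and centring arrays on the 100 miRNAs with the brightest signal called 51 higher and 107 lower.

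The sequences of the miRNAs that rose by at least 2-fold show the repeat that many of them share. RefSeq (GRCm38.p6) gave a mature sequence for 364 of the 438 miRNAs (83.1%), including 9 of these 15. Of these 9, miR-6931-5p and miR-6918-5p have no alternating stretch of 8 or more bases, and miR-6918-5p is not printed. Capitals mark the longest stretch in which U and G alternate, in the 7 measured miRNAs where that stretch is at least 8 bases.
miR-574-5p: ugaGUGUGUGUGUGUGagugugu
miR-1187: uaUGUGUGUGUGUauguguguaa
miR-3082-5p: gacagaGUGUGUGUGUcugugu
miR-32-3p: caauuuaGUGUGUGUGauauu
miR-672-5p: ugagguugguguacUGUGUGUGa
miR-6348: ucagccuuuauaagGUGUGUGU
miR-669n: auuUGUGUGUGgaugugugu

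The miRNA with the largest rise, miR-6931-5p, has no such run but is made almost wholly of G and U, and capitals mark its runs of 4 or more G.
miR-6931-5p: uGGGGuGGGGaguGGGGGacu

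A smaller set of rises shares the 6 bases UGUGCU, in capitals here. The first 4 come from hairpins whose other arm is a miR-15/16 family member, and let-7j and let-7i-5p share a stretch around the same bases.
miR-16-1-3p: ccaguauugacUGUGCUgcuga
miR-195a-3p: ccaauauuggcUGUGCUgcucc
miR-15a-3p: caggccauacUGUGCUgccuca
miR-16-2-3p: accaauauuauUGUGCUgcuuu
let-7j: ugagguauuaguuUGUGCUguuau
let-7i-5p: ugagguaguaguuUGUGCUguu

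Among the lower miRNAs several share a seed, in capitals in the sequences that follow. Those printed are the 5 lower let-7 members, the miR-196 pair, the 3p arms of miR-379 and miR-411 and the 3p arms of miR-30e and miR-30a, and another lower pair, miR-30c-5p and miR-30e-5p, is described with its family.
miR-98-5p: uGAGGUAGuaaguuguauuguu
let-7c-5p: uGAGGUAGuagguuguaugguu
let-7b-5p: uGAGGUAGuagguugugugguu
let-7a-5p: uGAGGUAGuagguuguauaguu
let-7f-5p: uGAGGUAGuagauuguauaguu
miR-196b-5p: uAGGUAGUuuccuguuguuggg
miR-196a-5p: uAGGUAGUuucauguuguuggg
miR-411-3p: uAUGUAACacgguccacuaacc
miR-379-3p: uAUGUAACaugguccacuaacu
miR-30e-3p: cUUUCAGUcggauguuuacagc
miR-30a-3p: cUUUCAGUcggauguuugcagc

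The 6 arrays resembled each other in level. Their medians lay between 6.26 and 6.32, and the arrays of a group correlated across miRNAs with r of 0.985 to 0.990 in DMM and 0.987 to 0.993 in sham. The median SD over miRNAs was 0.16 in DMM and 0.12 in sham. One label field of these samples names the tissue as subchondral bone, whereas the source field names cartilage. miR-140-3p read 13.1 to 13.7 on the 12 cartilage arrays of the series and 8.94 to 9.98 on the 16 bone arrays, with no overlap. miR-451a, of red cells, and miR-223-3p, of myeloid cells, were at 6.84 to 10.1 and 6.69 to 9.01 in cartilage, against 10.9 to 13.5 and 11.9 to 14.1 in bone. No source used here says whether the tissues were normalised as 1 set, which limits these levels set across tissues.

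miR-6931-5p, encoded on chr11:102999896-102999916 on the minus strand within Dcakd, had signals of 10.92, 11.45 and 11.03 in the DMM pools, against 8.42, 8.69 and 8.52 in the sham pools. The groups did not overlap, and the lowest DMM pool was over 2 log2 units above the highest sham pool. The log2 fold change was 2.59 ± 0.21 (SE, n = 3 pools each), with a limma adjusted p of 1.23e-05 and a 95% interval of 4.42-fold to 8.23-fold.

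miR-574-5p, from a hairpin on chr5:64970328-64970350 (plus strand) within Fam114a1 and Tlr6, carried the longest alternating run, of 13 bases. It had 11.25, 11.63 and 11.85 in DMM cartilage and 9.66, 9.85 and 9.76 in sham cartilage. All DMM pools were above all sham pools, by a log2 fold change of 1.82 ± 0.20 (SE), or 3.54-fold, with a limma adjusted p of 0.000157. miR-1187 (chr5:82798964-82798986, minus strand, in no annotated protein-coding gene) had 10.34, 10.74 and 11.04 in DMM pools, against 8.69, 8.91 and 8.76 in sham pools. Its rise of 1.92 ± 0.23 (SE) was 3.78-fold, again without overlap.

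miR-3082-5p (chr17:25831406-25831427, minus strand, where Jmjd8 and Stub1 overlap it) had 10.75, 11.07 and 11.38 in DMM cartilage and 9.19, 9.30 and 9.16 in sham cartilage. miR-32-3p, the 3p arm of a hairpin within Tmem245 on chr4:56895232-56895252 (minus strand), had 7.97, 8.38 and 8.84 in DMM pools and 6.93, 6.97 and 6.92 in sham pools. Both were separated between the groups, with log2 fold changes of 1.85 ± 0.22 and 1.46 ± 0.25 (SE). miR-32-3p varied more between DMM pools, with an SD of 0.44, than between sham pools, with an SD of 0.02.

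miR-669n (chr3:115979905-115979924, plus strand, within Slc30a7) had 9.24, 9.54 and 9.94 in DMM cartilage, against 7.96, 8.09 and 7.87 in sham cartilage. miR-6348 (chr1:168490740-168490761, plus strand, within a long non-coding RNA gene) had 7.08, 7.30 and 7.94 in DMM and 6.35, 6.40 and 6.16 in sham. miR-672-5p (chrX:104116228-104116250, minus strand, within Nexmif) had 6.98, 7.34 and 7.85 in DMM and 6.24, 6.34 and 6.23 in sham. None of these miRNAs overlapped between the groups, and their log2 fold changes were 1.60 ± 0.23, 1.14 ± 0.24 and 1.12 ± 0.23 (SE).

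The other miRNAs that were at least 2-fold higher were miR-466i-5p, miR-468-3p, miR-669l-5p, miR-466m-5p, miR-669e-5p, miR-6918-5p and miR-466f-5p. miR-466i-5p had 12.68, 12.95 and 13.18 in DMM pools, against 11.01, 11.18 and 11.18 in sham pools, a rise of 1.81 ± 0.19 (SE), and it had the brightest signal of all 69 higher miRNAs. The rest lay between 1.00 for miR-466f-5p and 1.48 for miR-468-3p. Over the 15 rises the SE ran from 0.17 to 0.26 and the adjusted p from 1.23e-05 to 0.00962. In all 15 the spread between DMM pools exceeded that between sham pools, with SDs of 0.16 to 0.44 in DMM and 0.02 to 0.13 in sham.

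**Figure D1:**
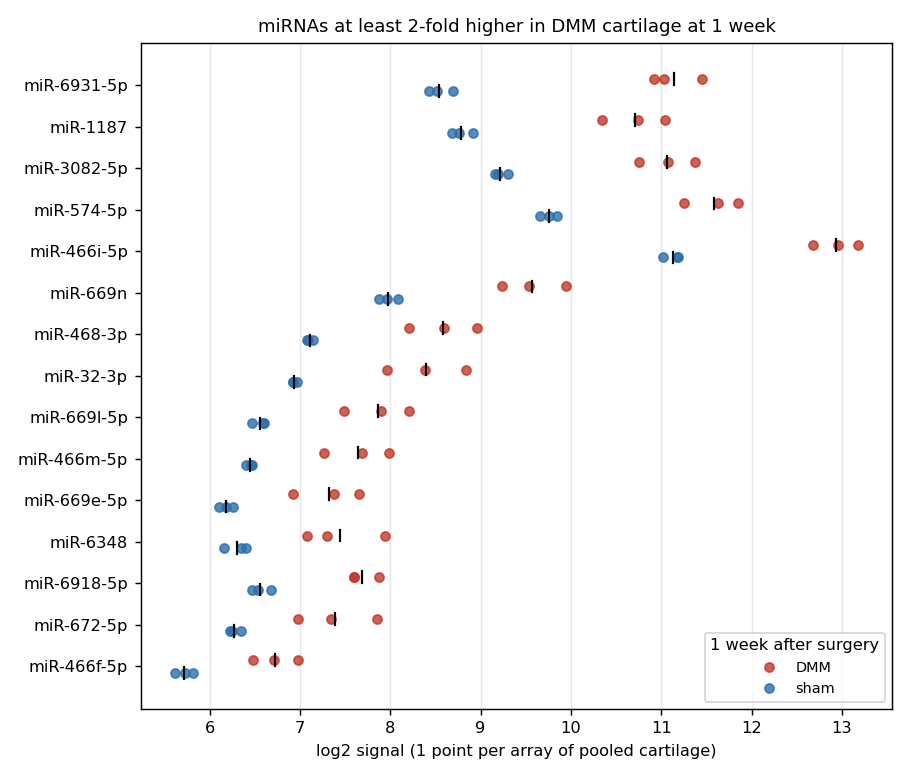
Log2 signal of the 15 miRNAs that were at least 2-fold higher in DMM cartilage at 1 week; each point is 1 array of pooled cartilage, DMM in red above sham in blue, and black bars mark the group means. The 3 DMM points lie right of the 3 sham points in every row, and the gap is widest for miR-6931-5p, with means of 11.14 in DMM and 8.54 in sham.

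Just under the 2-fold line, 9 called miRNAs lay between 0.8 and 1 on the log2 scale, among them miR-669o-5p (0.99), miR-466h-5p (0.99) and miR-466j (0.98). miR-31-5p was another, with 7.33, 6.57 and 6.81 in DMM cartilage and 6.26, 5.67 and 6.12 in sham cartilage, a rise of 0.89 ± 0.21 (SE, adjusted p = 0.0101). miR-5126, a G-rich miRNA, was among the 5 higher miRNAs with the brightest signal. It had 10.66, 10.52 and 10.59 in DMM pools, against 9.79, 9.90 and 9.65 in sham pools. That separation amounted to 0.81 ± 0.13 (SE).

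The repeat was counted over all miRNAs with a sequence, reading the mature strand only. The count includes the rises of at least 2-fold in which the repeat was seen, so it is no separate test of them. The 6 bases UGUGUG occurred in 12 of 364 mature miRNAs (3.30%), and 10 of these were higher, 1 was lower and 1 was not called. Set against the called miRNAs with a sequence, they were 20.8% of the 48 higher (13.2% of 364) and 2.22% of the 45 lower (12.4% of 364). Their median change was 1.13, beside -0.03 over all 364. All 7 miRNAs with an alternating run of at least 8 bases were higher, by 1.12 to 1.92. Of the 5 with a run of 6 or 7 bases, miR-466j (0.98), the skeletal muscle miRNA miR-206-3p (0.53) and the embryonic stem cell miRNA miR-294-3p (0.47) were higher.

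Both exceptions carry the let-7 seed. let-7b-5p holds UGUGUG near its 3′ end and was lower, and let-7k, with 5.88, 5.97 and 6.20 in DMM and 5.80, 5.85 and 5.84 in sham, changed by 0.19 ± 0.11 (SE) and did not pass (adjusted p = 0.212). The median signal of the 12 repeat-bearing miRNAs was 7.52, 7.86 and 8.39 in the DMM pools, against 6.64, 6.68 and 6.58 in the sham pools. DMM replicate 3 was thus the highest and DMM replicate 1 the lowest of the DMM pools in this set. Related repeats can bind related probes, and whether each probe reads only its own miRNA was not tested, so these rows are not independent observations.

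UGUGCU, likewise a motif chosen after the values were seen, occurred in 11 of 364 mature miRNAs (3.02%). Of these 10 were higher and 0 lower, where 13.2% of the 364 were higher and 12.4% lower. No miRNA held both motifs. The median change of the 11 was 0.55. Their signals were dim, with medians of 5.84, 5.90 and 6.01 in DMM pools and 5.44, 5.41 and 5.35 in sham pools. The 3p arms of the miR-15/16 hairpins rose together: miR-195a-3p by 0.80 ± 0.18, miR-16-1-3p by 0.66 ± 0.14, miR-15a-3p by 0.47 ± 0.13 and miR-16-2-3p by 0.39 ± 0.13 (SE). With 1 cartilage array left out at a time, miR-195a-3p and miR-16-1-3p were called in 12 of 12 fits. miR-15a-3p was called in 8 of 12 and miR-16-2-3p in 7 of 12. miR-195a-3p had 6.42, 6.57 and 6.76 in DMM pools and 5.85, 5.75 and 5.75 in sham pools, with no overlap. The 5p arms, which are the family's main products, did not pass: miR-195a-5p changed by -0.32 ± 0.17, miR-15a-5p by -0.24 ± 0.12 and miR-16-5p by -0.33 ± 0.15 (SE). let-7j, at 5.86, 6.08 and 6.25 in DMM and 5.57, 5.51 and 5.46 in sham, rose by 0.55 ± 0.15. let-7i-5p, which shares the motif, had 10.26, 9.91 and 9.71 in DMM and 9.94, 9.90 and 10.00 in sham. Its groups overlapped, and its change of 0.02 had a 95% interval of -0.32 to 0.35.

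The letters that pair with this repeat were also counted. CACACA occurred in 6 mature miRNAs, of which 0 were higher, 2 were lower (miR-466i-3p and miR-377-3p) and 4 were not called. Their changes ran from -0.60 to -0.34, and over all 364 miRNAs 13.2% were higher and 12.4% lower. Runs of 4 or more G, GGGG, occurred in 79 (21.7%) of the 364, with a median change of 0.12. Of these 12 (15.2%) were higher, near the 13.2% over all 364, and 1 was lower. Base composition moved with the change more broadly. The mature sequences were on average 68.7% U plus G among the higher miRNAs, 55.6% among the lower and 57.7% over all 364, and A made up 14.7% of the higher and 24.2% of the lower. U alone made up 29.3% of the higher and 32.0% of the lower, and G alone 39.5% and 23.7%. Across the 364 miRNAs, which share the 6 arrays and are not replicates, the change correlated with the U plus G share at r = 0.39 (Spearman's rho 0.34). Taken singly, the share of G gave r = 0.33 (rho 0.39) and that of U gave r = 0.05 (rho -0.11).

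**Figure D2:**
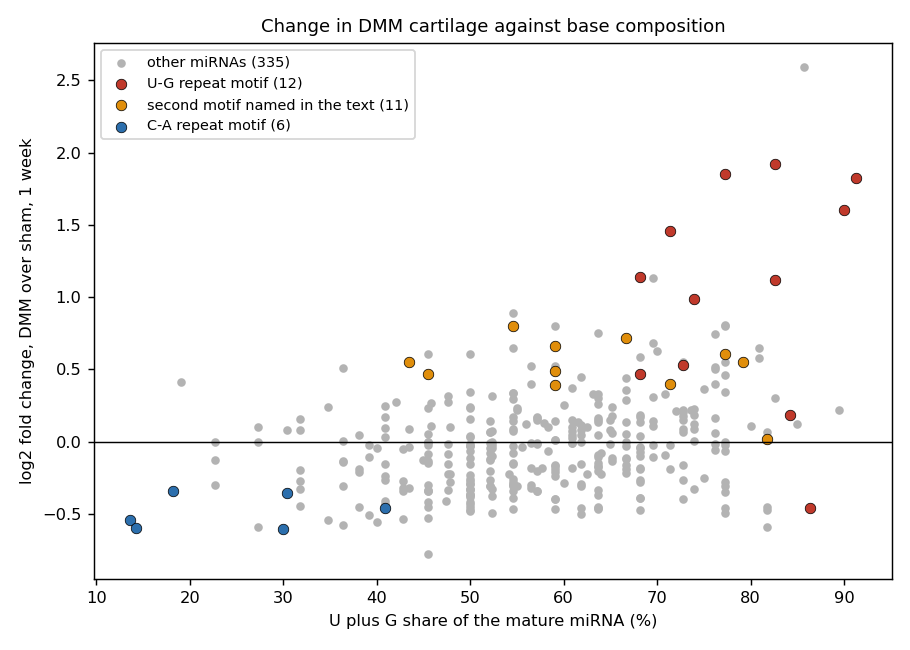
Log2 fold change, DMM over sham cartilage at 1 week, against the share of U plus G in the mature sequence, for the 364 miRNAs with a RefSeq sequence; colours mark the 12 with the U-G repeat, the 11 with the second motif and the 6 with the C-A repeat. Red points reach 1.92 on the right, blue points lie between -0.60 and -0.34 on the left, and the grey point at 2.59 is miR-6931-5p.

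The relation to the share of U and G was also taken array by array, over the same miRNAs. It is not evidence separate from the correlation above. The slope of each array's deviation from the mean of the 12 cartilage arrays on that share was 0.052, 0.033 and 0.073 log2 units per 10 percentage points in the 1-week DMM pools. It was -0.077, -0.050 and -0.055 in the 1-week sham pools, so the groups did not overlap. An unplanned fit took the slope out of every array. It called 9 of the 12 UGUGUG miRNAs higher, with a median change of 0.93, and 8 of the 11 UGUGCU miRNAs, beside 47 of all 364. That fit called 85 of 364 miRNAs, as many as the same rows gave without it, and 64 were called in both. The part of base composition in the other changes was not tested.

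Calls were spread over all signal levels. The share of miRNAs called was 27.3%, 27.5%, 30.3% and 26.4% in 4 equal parts of the 438, from the dimmest to the brightest, near the 27.9% called over all. Among the 20 with the brightest signal, 1 was higher, 5 were lower and 15 had a change below 0, with a median of -0.21, whereas 54.3% of all miRNAs had a change below 0. Among the 50 brightest, 10 were higher and 7 lower, with a median of -0.15.

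Falls were smaller and closer to each other in size. miR-196b-5p, encoded on chr6:52230129-52230150 (minus strand) in a Hox gene cluster, had 7.17, 7.01 and 6.93 in DMM cartilage, against 7.63, 7.54 and 7.72 in sham cartilage. No DMM pool reached the lowest sham pool, and the log2 fold change was -0.59 ± 0.11 (SE, adjusted p = 0.00272). miR-196a-5p, with the same seed, had 8.25, 8.22 and 7.98 in DMM and 8.65, 8.53 and 8.64 in sham, also without overlap, and changed by -0.45 ± 0.13 (SE, adjusted p = 0.0188). The other 2 Hox-cluster miRNAs, miR-10a-5p and miR-10b-5p, were not called, and all 4 had a change below 0, with a median of -0.39.

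let-7 miRNAs, which restrain growth and stem cell genes and share the seed GAGGUAG, gave 5 of 9 listed members lower and 0 higher, against 12.1% lower over all miRNAs, with a median of -0.39. The list left out let-7k, which has this seed and was not called (0.19). It also left out let-7j, whose seed is GAGGUAU and which was higher (0.55). Members resemble each other in sequence, and the cross-binding of their probes was not tested. let-7c-5p had 13.44, 13.33 and 13.09 in DMM pools and 13.72, 13.76 and 13.82 in sham pools. let-7b-5p had 13.28, 13.29 and 13.07 in DMM and 13.56, 13.69 and 13.76 in sham, and let-7a-5p had 12.66, 12.41 and 12.20 in DMM and 12.87, 12.89 and 12.89 in sham. Each was separated between the groups and fell by 0.46 to 0.48 on the log2 scale, so that let-7c-5p was 28.2% lower in DMM. miR-98-5p (-0.49 ± 0.11) and let-7f-5p (-0.39 ± 0.14, SE, adjusted p = 0.0499) also passed. let-7d-5p (-0.27) and let-7g-5p (-0.26) were lower in every DMM pool than in every sham pool without passing, and let-7e-5p changed by -0.02 ± 0.12.

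The remaining falls of this size came from several loci. miR-374c-5p, within the non-coding gene Ftx on chrX:103573086-103573105 (plus strand), had 5.79, 5.82 and 5.75 in DMM cartilage and 6.30, 6.23 and 6.50 in sham cartilage. miR-30c-5p had 7.80, 7.78 and 7.74 in DMM and 8.32, 8.11 and 8.52 in sham. miR-425-5p (chr9:108568789-108568811, plus strand, within Dalrd3) had 6.35, 6.61 and 6.46 in DMM and 6.98, 6.88 and 7.10 in sham. The groups were apart for each, with changes of -0.56 ± 0.10, -0.54 ± 0.14 and -0.51 ± 0.11 (SE). miR-6954-5p had the largest fall among called miRNAs, -0.61 ± 0.21, with 5.67, 5.71 and 5.64 in DMM against 6.25, 5.96 and 6.64 in sham, and its adjusted p of 0.0476 was close to the threshold. Of the 12 largest falls, adjusted p ran from 0.00272 to 0.0476.

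miR-30 family members, widely expressed and sharing the seed GUAAACA where RefSeq gave a sequence, were lower in 2 of 5 (miR-30c-5p and miR-30e-5p), beside the 12.1% lower over all miRNAs that also applies to the families below. The 3p arms miR-30e-3p (-0.47 ± 0.11) and miR-30a-3p (-0.46 ± 0.11, SE) fell as well. Of the miR-26 and miR-101 families 2 of 4 were lower, miR-26b-5p (-0.34 ± 0.10) and miR-101c (-0.41 ± 0.12). miR-99a-5p, of the miR-99/100 group, was lower at 11.10, 11.17 and 10.93 in DMM and 11.40, 11.39 and 11.41 in sham. It was among the 5 lower miRNAs with the brightest signal, the others being let-7c, let-7b, let-7a and let-7f. No member passed among 6 of the miR-15/16 family's main arms (median -0.31), 8 of the miR-17-92 group and its paralogs (-0.05), 5 of the miR-23/27/24 clusters (-0.23), 3 of the miR-29 family (-0.15) or 2 of the pair miR-103 and miR-107 (-0.24). miR-181c-5p was the 1 of 4 miR-181 members called, and it was lower by -0.45 ± 0.10.

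**Figure D3:**
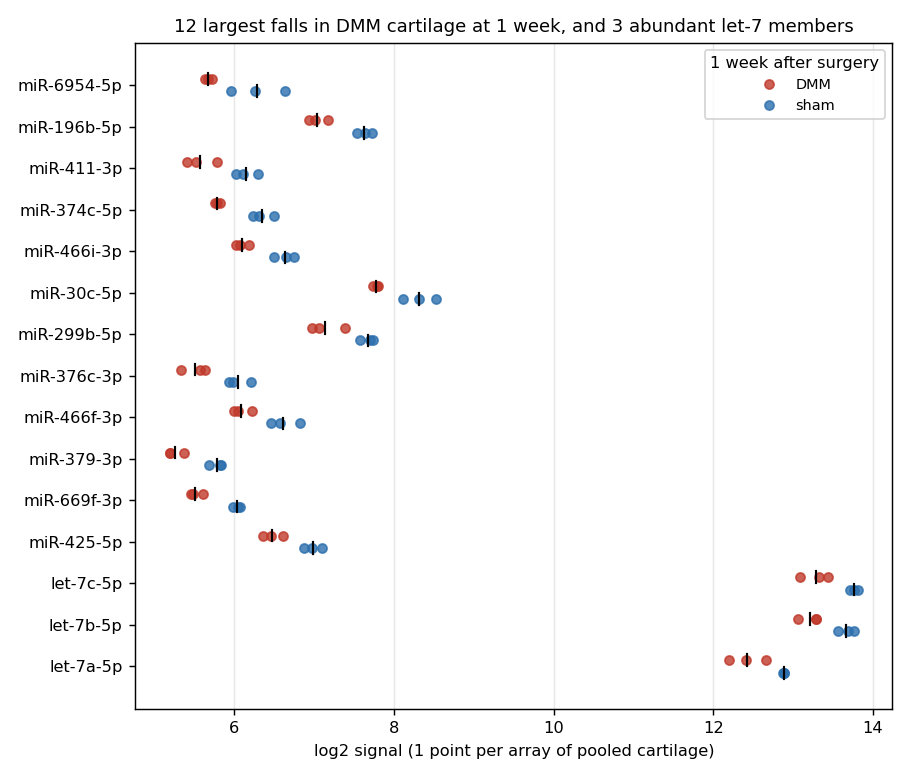
Log2 signal of the 12 largest falls in DMM cartilage at 1 week and of let-7c-5p, let-7b-5p and let-7a-5p; each point is 1 array of pooled cartilage, DMM in red above sham in blue, with black bars at the group means. DMM points lie left of sham points in every row, by less than in the plot of the rises, for example at means of 7.04 in DMM and 7.63 in sham for miR-196b-5p.

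The Dlk1-Dio3 cluster on chromosome 12 is an imprinted region whose maternal copy gives a long chain of miRNAs. Of 29 measured miRNAs listed for the cluster, 14 were lower and 0 higher, against 12.1% lower over all miRNAs. In this list 27 had a change below 0, with a median of -0.39. The list left out miR-3070-3p, miR-3070-2-3p, miR-3072-5p and miR-1906, which RefSeq places in the same region and which were not called. The count of 14 in 29 is thus that of the list only, and miR-1906 also maps to chromosome X. miR-379-3p (chr12:109709102-109709123, plus strand) had 5.19, 5.37 and 5.19 in DMM pools, against 5.68, 5.82 and 5.83 in sham pools. miR-411-3p, which lies just downstream of it (chr12:109710225-109710246) and shares its seed, had 5.51, 5.78 and 5.40 in DMM and 6.11, 6.01 and 6.29 in sham. Neither overlapped, with changes of -0.53 ± 0.11 and -0.58 ± 0.14 (SE). miR-299b-5p (-0.53 ± 0.15) and miR-376c-3p (-0.53 ± 0.12) also fell by this amount, and the smallest fall called was that of miR-136-5p (-0.39 ± 0.11).

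Within the list both arms took part, with 7 of 11 5p arms and 7 of 18 3p arms lower. The 2 listed members with the brightest signal did not pass. miR-127-3p had 8.77, 9.06 and 8.64 in DMM and 8.94, 9.05 and 9.09 in sham, and miR-494-3p had 11.43, 10.84 and 10.53 in DMM and 10.92, 10.95 and 11.53 in sham. Both overlapped between the groups, and miR-494-3p had an SE of 0.60. The 2 listed members above 0, miR-134-5p (0.14) and miR-487b-3p (0.26), were not called. In bone 5 of the 29 had values.

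Sfmbt2, a Polycomb gene, holds a long array of related miRNAs in one of its introns in rodents, and the list of these with relatives from other loci was split by arm. All 13 measured 5p arms were higher, by 0.59 for miR-297c-5p to 1.81 for miR-466i-5p, with a median of 0.99, where 15.8% of all miRNAs were higher. Of 7 measured 3p arms 0 were higher and 3 were lower, with changes from -0.62 to -0.24 and a median of -0.53, where 12.1% of all were lower. Of the 5 members with no arm in their name, 2 were higher (miR-669n and miR-466j) and 1 was lower (miR-466g), with a median of -0.48. The summed signal of the 5p arms was 12.9 to 13.4 in DMM pools, against 11.4 to 11.6 in sham pools, and that of the 3p arms was 8.83 to 9.04 in DMM, against 9.37 to 9.58 in sham. The 2 sums thus lay apart in opposite directions, but most of the 5p sum came from miR-466i-5p, whose signals are given above. RefSeq places the 3p arm of that hairpin within Cdk13 on chromosome 13. The median signal of the 5p arms was 6.54 to 7.09 in DMM pools, against 5.90 to 6.03 in sham pools. That of the 3p arms was 6.00 to 6.18 in DMM, against 6.46 to 6.75 in sham. Members of each arm resemble each other in sequence, and the probes' cross-binding was not tested.

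Opposite calls on the arms of 1 hairpin occurred in 3 of the 38 hairpins with both arms measured, and all were of this list. miR-466i-5p was higher by 1.81, and miR-466i-3p had 6.01, 6.18 and 6.07 in DMM pools and 6.75, 6.65 and 6.50 in sham pools, a change of -0.54 ± 0.18 (SE, adjusted p = 0.0457). miR-466f-5p had 6.48, 6.72 and 6.97 in DMM, against 5.61, 5.73 and 5.82 in sham, while miR-466f-3p had 6.00, 6.22 and 6.04 in DMM, against 6.82, 6.57 and 6.46 in sham. miR-669f-5p had 6.26, 6.57 and 6.73 in DMM, against 5.58, 5.68 and 5.77 in sham, and miR-669f-3p had 5.47, 5.60 and 5.45 in DMM, against 6.07, 6.05 and 5.99 in sham. Each of the 6 arms was separated between the groups, upward for the 5p and downward for the 3p arm.

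Hairpins outside the list with both arms called moved 1 way. miR-30e, miR-337, miR-379 and miR-411 had both arms lower, and the last 3 belong to the Dlk1-Dio3 cluster. In 15 hairpins 1 arm was called and in 16 neither. miR-574 came near the opposite pattern: its 5p arm rose by 1.82, and its 3p arm, at 6.67, 7.05 and 6.78 in DMM and 7.34, 7.07 and 7.11 in sham, changed by -0.34 ± 0.13 without passing (adjusted p = 0.0764).

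**Figure D4:**
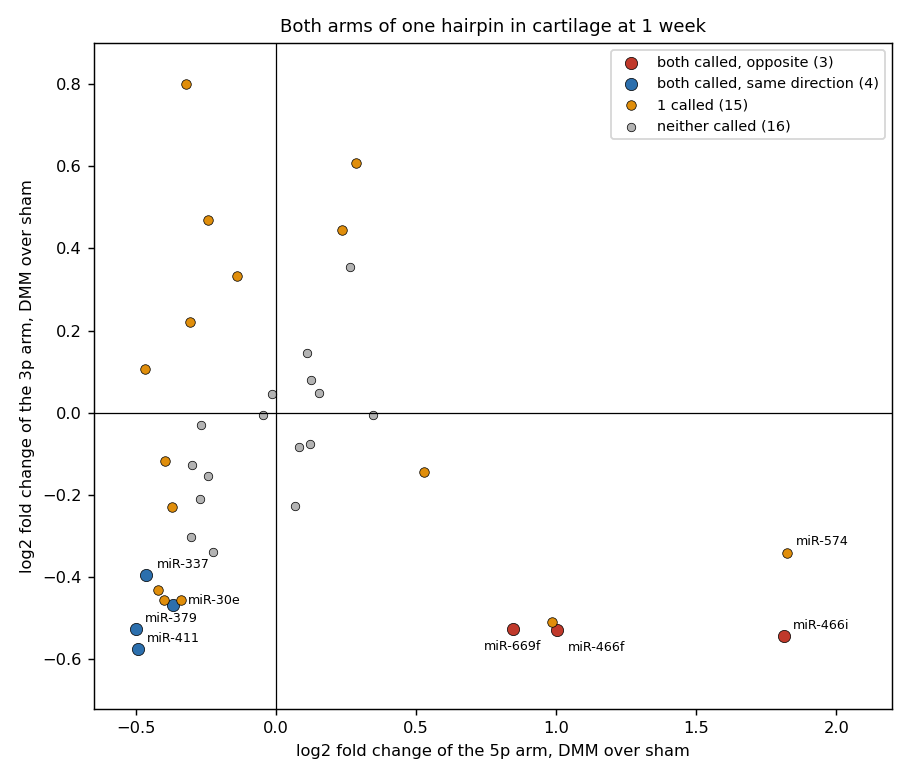
Log2 fold change of the 3p arm against that of the 5p arm, DMM over sham cartilage at 1 week, for 38 hairpins with both arms measured; colours give how many arms were called. The 3 hairpins called in opposite directions lie at the lower right, miR-466i farthest with 1.81 on the 5p and -0.54 on the 3p arm, and the 4 called in the same direction lie at the lower left.

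Of the 4 cartilage-enriched miRNAs 1 was lower, where 12.1% of all miRNAs were. All 4 had a change below 0, where 54.3% of all miRNAs did, and the median was -0.34. miR-140-3p had 13.51, 13.32 and 13.24 in DMM cartilage, against 13.57, 13.40 and 13.74 in sham cartilage, and miR-140-5p had 12.18, 11.72 and 11.62 in DMM and 12.03, 12.07 and 12.23 in sham. Both overlapped between the groups, and the 95% interval of miR-140-3p ran from -0.46 to 0.04. miR-455-5p, whose gene lies within the collagen gene Col27a1, was the 1 of 4 called, with 6.83, 6.61 and 6.54 in DMM and 7.04, 6.84 and 7.30 in sham. Its change was -0.40 ± 0.13 (SE, adjusted p = 0.0457), and miR-455-3p changed by -0.46 ± 0.17 without passing.

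Of 5 measured miRNAs listed as induced by inflammation 0 were called, where 27.9% of all miRNAs were called. miR-21a-5p had 10.37, 8.94 and 9.14 in DMM pools, against 8.86, 8.62 and 8.58 in sham pools. All DMM pools were above all sham pools, but replicate 1 alone was far above, and the change of 0.80 ± 0.37 (SE) did not pass (adjusted p = 0.118). miR-146a-5p (-0.17) and miR-155-5p (0.11) overlapped between the groups. miR-210-3p, induced by low oxygen, had 9.89, 9.86 and 9.65 in DMM and 10.14, 10.06 and 10.21 in sham, and fell by 0.33 (adjusted p = 0.049). miR-222-3p was higher by 0.52 ± 0.13, at 6.91, 6.54 and 6.57 in DMM and 6.27, 6.00 and 6.19 in sham, while miR-221-3p, made from the same transcript, changed by 0.24 ± 0.13 and overlapped. miR-214-5p was the 1 of 5 mesenchymal miRNAs of the miR-199 and miR-214 genes called, higher by 0.53 ± 0.14. That count too stands beside the 27.9% called over all miRNAs.

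Of 2 red cell, 3 leukocyte, 4 muscle, 1 endothelial and 2 bone-related miRNAs measured, 1 was called, where 27.9% of all miRNAs were. The summed signal of 2 red cell miRNAs was 7.58 to 7.99 in DMM, against 7.41 to 8.27 in sham, and that of 3 leukocyte miRNAs was 8.21 to 8.69 in DMM, against 8.27 to 8.78 in sham. miR-126a-3p, of endothelial cells, was at 5.36 to 7.24 in DMM and 5.82 to 6.37 in sham, and the 2 measured bone-related miRNAs were not called. The summed signal of 4 muscle miRNAs was 7.51 to 7.82 in DMM, against 7.76 to 8.82 in sham, and the 1 called was miR-206-3p, which bears the U-G repeat. The muscle miRNA miR-1a-3p had 5.26, 5.52 and 4.92 in DMM, against 6.87, 5.83 and 5.92 in sham, so that sham replicate 1 stood highest, as it did for miR-133a-3p at 6.83 and miR-133b-3p at 7.48. Without that pool 90 miRNAs were called in all, and the part of muscle RNA in the changes was not tested. Of the 122 miRNAs numbered 6000 and above, 19 were higher and 2 lower, beside 15.8% higher and 12.1% lower over all miRNAs.

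Whether the changes were those of the first week was tested against cartilage taken 6 weeks after surgery, in other mice. Of the 69 higher miRNAs 68 had a change above 0 at 6 weeks, where 44.3% of all miRNAs did, and 41 were called higher there, where 9.59% were. Of the 53 lower miRNAs all had a change below 0 at 6 weeks, where 55.7% of all did, and 16 were called lower, where 7.31% were. The change was larger at 1 week for 65 of the 69 and 46 of the 53, which were chosen for passing at 1 week. All 15 of the 2-fold rises were called at 6 weeks, with changes of 0.88 to 1.76. miR-574-5p, for example, had 11.32, 11.61 and 10.83 in 6-week DMM pools, against 10.22, 9.77 and 9.86 in 6-week sham pools.

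The difference of the DMM change between 1 and 6 weeks passed in 0 of 438 miRNAs (0.0%), and 13 (2.97%) had an unadjusted p under 0.05. The smallest p was that of miR-5099. Its DMM change was 0.41 ± 0.14 at 1 week and 1.47 ± 0.14 at 6 weeks, a difference of -1.06 ± 0.19 (SE) with an adjusted p of 0.0565. Next came miR-222-3p, with a change of 0.52 at 1 week and -0.03 at 6 weeks, then miR-181a-1-3p (-0.45 and -0.05), miR-129-2-3p (-0.13 and -0.62) and miR-6931-5p (2.59 and 1.76). The adjusted p of these 4 was 0.999.

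Subchondral bone of the same operation and week, 4 mice a group, gave 0 of 490 miRNAs called (0.0%), with 3 (0.612%) at an unadjusted p under 0.05. The 15 rises of cartilage had changes of -0.38 to 0.21 in bone, with SEs of 0.18 to 0.44. The difference of the DMM change between cartilage and bone passed in 1 of the 359 miRNAs measured in both (0.279%), and 59 (16.4%) had an unadjusted p under 0.05. The 1 was miR-6931-5p, by 2.41 ± 0.28 (SE, adjusted p = 3.28e-06), with bone means of 8.18 ± 0.17 in DMM and 8.00 ± 0.33 in sham (SD, n = 4 each). miR-6546-5p (0.90 ± 0.24), miR-466f-5p (1.02 ± 0.30), miR-195a-3p (0.84 ± 0.25) and miR-16-1-3p (0.71 ± 0.22) followed with an adjusted p of 0.156. Bone arrays were of single mice and cartilage arrays of pools, and both shared 1 estimate of spread here.

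**Figure D5:**
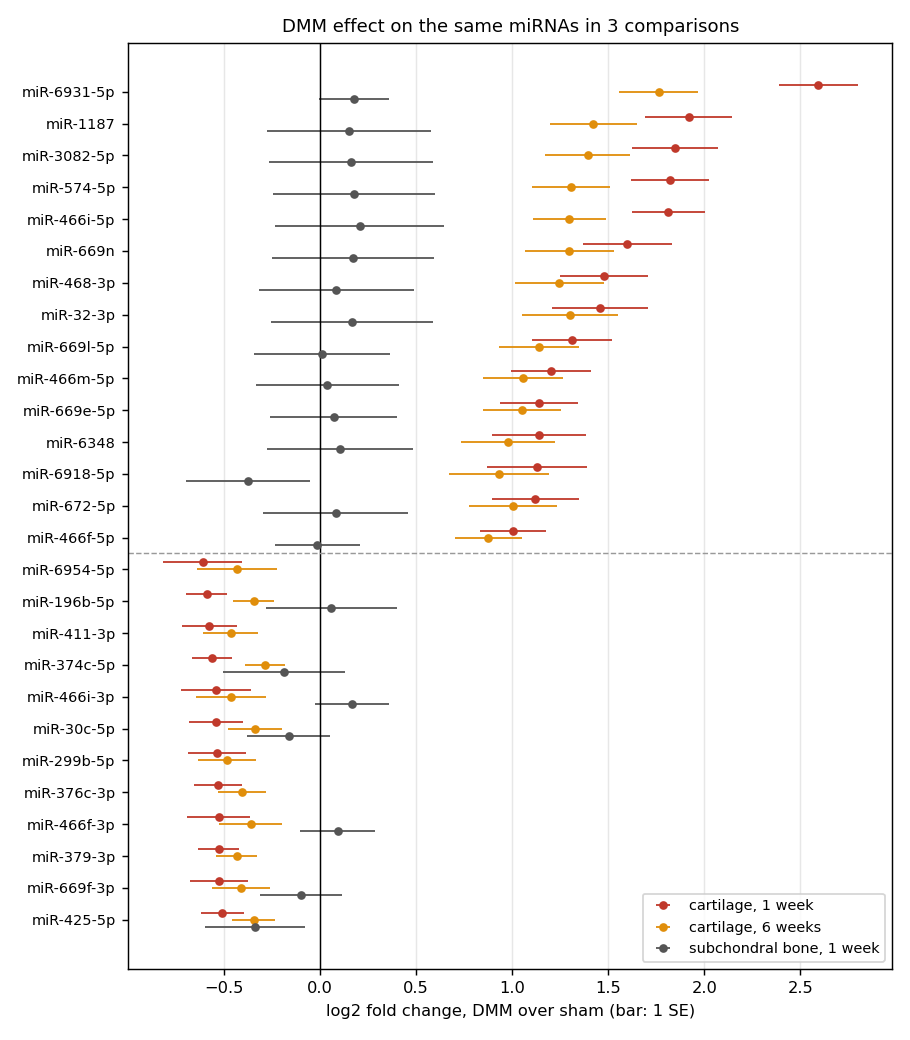
Log2 fold change, DMM over sham, of the 15 largest rises (above the dashed line) and 12 largest falls in cartilage at 1 week, in cartilage at 6 weeks and in bone at 1 week; points are estimates, bars are 1 SE, and falls with no value in bone have no grey point. Cartilage points of both weeks lie on the same side of 0 in every row, and bone points of the rises lie between -0.38 and 0.21.

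The cartilage change also lay along a direction in which bone arrays differ among themselves. The first principal component of the bone arrays' deviations from their group means held 62.3% of that variation, and the cartilage arrays were scored on it. The 1-week DMM pools scored 2.65, 3.25 and 4.15, against -1.53, -0.87 and -0.97 in the 1-week sham pools, with DMM above sham at 6 weeks too. With this score as a covariate, 0 of 438 miRNAs were called by limma and 10 had an unadjusted p under 0.05. The score did not overlap between the groups, so that it and the operation cannot be told apart in these arrays.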

How the data were processed

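miRNA was measured on 28 Agilent mouse miRNA arrays, 12 of cartilage pools and 16 of bone. The authors deposited 1 table of 569 miRNAs, whose values, 4.72 to 16.7 in cartilage, were taken as log2 signals and kept as they stand. limma 3.20.9 is named in the submitters' processing notes. How background was corrected, arrays normalised and rows filtered is not given in the sources used. Every sample column of the table was mapped (0 unused).

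limma 3.58.1 (R 4.3.3, with jsonlite 2.0.0 to read labels) was fitted to the 438 miRNAs with values on all 12 cartilage arrays, as 4 group means with empirical Bayes moderation. The difference between weeks came from that fit, and the difference between tissues from all 28 arrays over 359 shared miRNAs. P-values were Benjamini-Hochberg adjusted over all miRNAs tested, with a threshold of 0.05. They measure the spread between pools in cartilage, between single mice in bone, and a mix of both in the difference between tissues. With 3 pools a side the smallest 2-sided exact permutation p for 1 miRNA is 0.1. The fit was tested on simulated data.

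Named miRNAs were those called and at least 2-fold changed, the 12 largest falls, the 5 brightest called each way, list members, hairpins called in opposite directions, called miRNAs sharing a seed, the longest alternating U-G runs, and the 5 smallest p for differences of changes. Members and lists were chosen with earlier results of these data known. The lists of epithelial (miR-200 family) and miR-143/145 miRNAs had 0 measured members. Sequences and coordinates are RefSeq's (GRCm38.p6). The number of arrays limits precision, and scanner background values were not used here.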

Additional observations from a re-analysis of the deposited data

Results flagged for a closer look

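miR-6931-5p differed in its DMM change between tissues at 1 week. The change in cartilage minus that in bone was 2.41 ± 0.28 on the log2 scale (SE), with a limma adjusted p of 3.28e-06 for the difference itself over 359 miRNAs. All 3 DMM pools of cartilage were above all 3 sham pools, and the bone change in its own fit was 0.18 ± 0.18 (SE). It was the 1 miRNA past the threshold in every setting but array weights, where 52 passed.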

How the results depend on the processing

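The 122 calls at 1 week became 27 (27 higher, 0 lower) when all 28 arrays were fitted over 359 shared miRNAs, 54 of 219 with miRNAs below the median level left out, and 0 with the bone-derived score as a covariate, an alternative chosen after seeing the data. Leaving out 1 cartilage array at a time gave 42 to 141 calls, and 34 of the 69 higher and 8 of the 53 lower miRNAs were called in all 12 such fits. In the planned fits that tested them, 21 higher miRNAs and 1 lower, miR-379-3p, were always called; 14 higher and 0 lower were tested and called in every planned fit, since miR-379-3p was tested in 8 of the other 11. The split of higher against lower calls depended on the scaling: it was 60 against 75 after quantile normalization, 56 against 86 centred on the 75th percentile, 51 against 107 centred on the 100 brightest miRNAs, and 87 against 85 with array weights. The median of all miRNAs moved to -0.11 with the percentile and to -0.17 with the 100 brightest. The named values that turned sign with the score as covariate were let-7a-5p to 0.025, let-7f-5p to 0.0099 and miR-5622-3p to -0.22. The cause was not tested.

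Replicate numbers did not pair the samples: the correlation of same-numbered pools' deviations at 1 week was 0.03, -0.39 and -0.37. With a replicate block 93 were called, and with a replicate block within week 48 (45 higher, 3 lower).

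The difference between weeks had 1 miRNA called, miR-5099, with array weights, after quantile normalization, centred on the 100 brightest miRNAs, or with dim miRNAs left out by either filter, and 0 to 1 when 1 array was left out. The difference between tissues had 52 called with array weights (40 higher and 12 lower in cartilage) and 1, miR-6931-5p, in the other settings.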
